A study of Mus musculus with 42 samples.

Results

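A set of 9 genes of muscle mass control was followed in the joint soft tissue of mice after knee arthroplasty, surgery that puts an implant into the knee. They were taken by symbol from the 36604 genes of the deposited count table: the ubiquitin ligases Trim63, Fbxo32 and Fbxo30, the transcription factors Foxo1 and Foxo3, the mitochondrial protein gene Mss51, and Mstn, Ostn and Fgf6, which encode secreted factors of muscle. All 9 passed the filter on low counts, as did 16149 genes in all. The 24 libraries came from C57BL/6 wild-type mice, with 4 in each of 6 groups: RST on days 3, 7, 14, 21 and 35, and LST on day 35 alone. What these codes stand for is not written out in the labels. Since LST has a single day, RST on an earlier day differs from LST in label and day at once. No source used here gives the age or sex of the mice, or says that the 4 libraries of a group came from separate animals.

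Muscle protein is lost when ubiquitin ligases tag it for the proteasome. Trim63 (MuRF1) marks proteins of the thick filament and Fbxo32 (the muscle atrophy F-box protein) regulators of growth. FoxO transcription factors switch these ligases on when signalling through Akt is low, and glucocorticoids act on the same genes. Mstn encodes myostatin, which holds muscle growth back through activin receptors. Ostn encodes osteocrin, a muscle and bone factor that binds the natriuretic peptide clearance receptor Npr3, and Fgf6 encodes a growth factor made in muscle. Mss51 is found in skeletal muscle mitochondria and was described as a gene that responds to myostatin. Fbxo30 is a further ligase of wasting muscle.

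The start regions of Trim63 and Mstn are shown because these genes had correlated levels across the libraries (values at the end) and both are textbook targets of FoxO and glucocorticoid signalling. Each line holds the 250 bases before the gene's start in the RefSeq table (build GRCm38.p6), 5′ to 3′ on the gene's strand, plus in both cases, with motif matches in capitals. They lie at chr4:134314870-134315119 and chr1:53061390-53061639.
Trim63: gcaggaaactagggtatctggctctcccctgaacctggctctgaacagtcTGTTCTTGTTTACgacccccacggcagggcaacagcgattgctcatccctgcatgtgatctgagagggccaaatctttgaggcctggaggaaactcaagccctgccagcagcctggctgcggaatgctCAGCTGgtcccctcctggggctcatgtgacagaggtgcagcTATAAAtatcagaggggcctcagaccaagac
Mstn: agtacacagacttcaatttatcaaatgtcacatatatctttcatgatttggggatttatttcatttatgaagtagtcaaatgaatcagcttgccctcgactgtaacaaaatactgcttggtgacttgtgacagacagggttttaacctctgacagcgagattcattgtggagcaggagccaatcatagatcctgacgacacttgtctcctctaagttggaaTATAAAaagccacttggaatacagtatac
The letters searched, on both strands, were the FoxO core TGTTTAC, the glucocorticoid receptor half-site AGAACA, the E-box CAGCTG of muscle regulators and the TATA box TATAAA. In Trim63 the FoxO core began 194 bases before the start, directly after a half-site that began at 200 and lay on the opposite strand. The Trim63 E-box began at 72 and its TATA box at 31, while the Mstn line held the TATA box alone, at 29. Of all 32851 promoters of this length, 3.17% held TGTTTAC, 16.1% AGAACA, 13% CAGCTG and 12.4% TATAAA. Of the 7 genes listed there (Trim63, Fbxo30, Foxo1, Foxo3, Mss51, Mstn and Fgf6), the other 5 had no match to these letters. The RefSeq table held no entry for Ostn or for Fbxo32, whose level correlated more closely with Trim63 (Pearson's r 0.87) than that of Mstn did (0.81). A match is a description of letters, and binding was not measured here.

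Levels are given as CPM, counts scaled to a common library total with the TMM factors of edgeR, or per kb of the gene's joined exons where genes are compared. Total counts ran from 17842090 to 28024003 per library. Most mature muscle genes of the list used here were abundant: the 18 summed to a median of 182406 CPM in LST day 35, 81946.9 on RST day 3 and 72644.3 on RST day 7, while macrophage markers (10 genes) had medians of 139, 2140 and 1427 CPM and fibroblast and matrix markers (9 genes) of 1319, 9720 and 32600. In LST, 17 of the 18 had mean levels of 1085 to 39614 CPM, while the troponin gene Tnnc2 was at 4.36, for a cause that was not tested. No marker of these lists was at 0 in every library of a group. In a bulk sample such as this, less muscle in the sample and less RNA of a gene per fibre cannot be told apart.

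In LST day 35 the ligases Trim63 and Fbxo32 had the highest levels per kb, with 106 ± 18.3 CPM per kb for Trim63 and 88.6 ± 19.6 for Fbxo32 (SD, n = 4), a gap within their spread. Mss51 followed at 54.2 ± 20.9 CPM per kb, overlapping with Fbxo32, then Mstn at 30.5 ± 3.44 and Ostn at 24 ± 10.3, which overlapped with each other. Foxo3 (6.31 ± 0.611), Fbxo30 (4.51 ± 0.471), Foxo1 (2.98 ± 0.824) and Fgf6 (1.99 ± 0.315) were lowest. Foxo1 overlapped with both of its neighbours in this order, and Fgf6 rested on 9 to 247 counts per library. The 9 genes thus spanned abundant enzymes and a growth factor of very low level. On RST day 3 the mean level of Ostn per kb (2.31 ± 0.450) was below that of Foxo1 (4.54 ± 1.58), the reverse of the order in LST. Their day 3 libraries overlapped, with Ostn at 2.97 in replicate 4 and Foxo1 at 2.91 in replicate 1, and this difference was not tested.

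**Figure D1:**
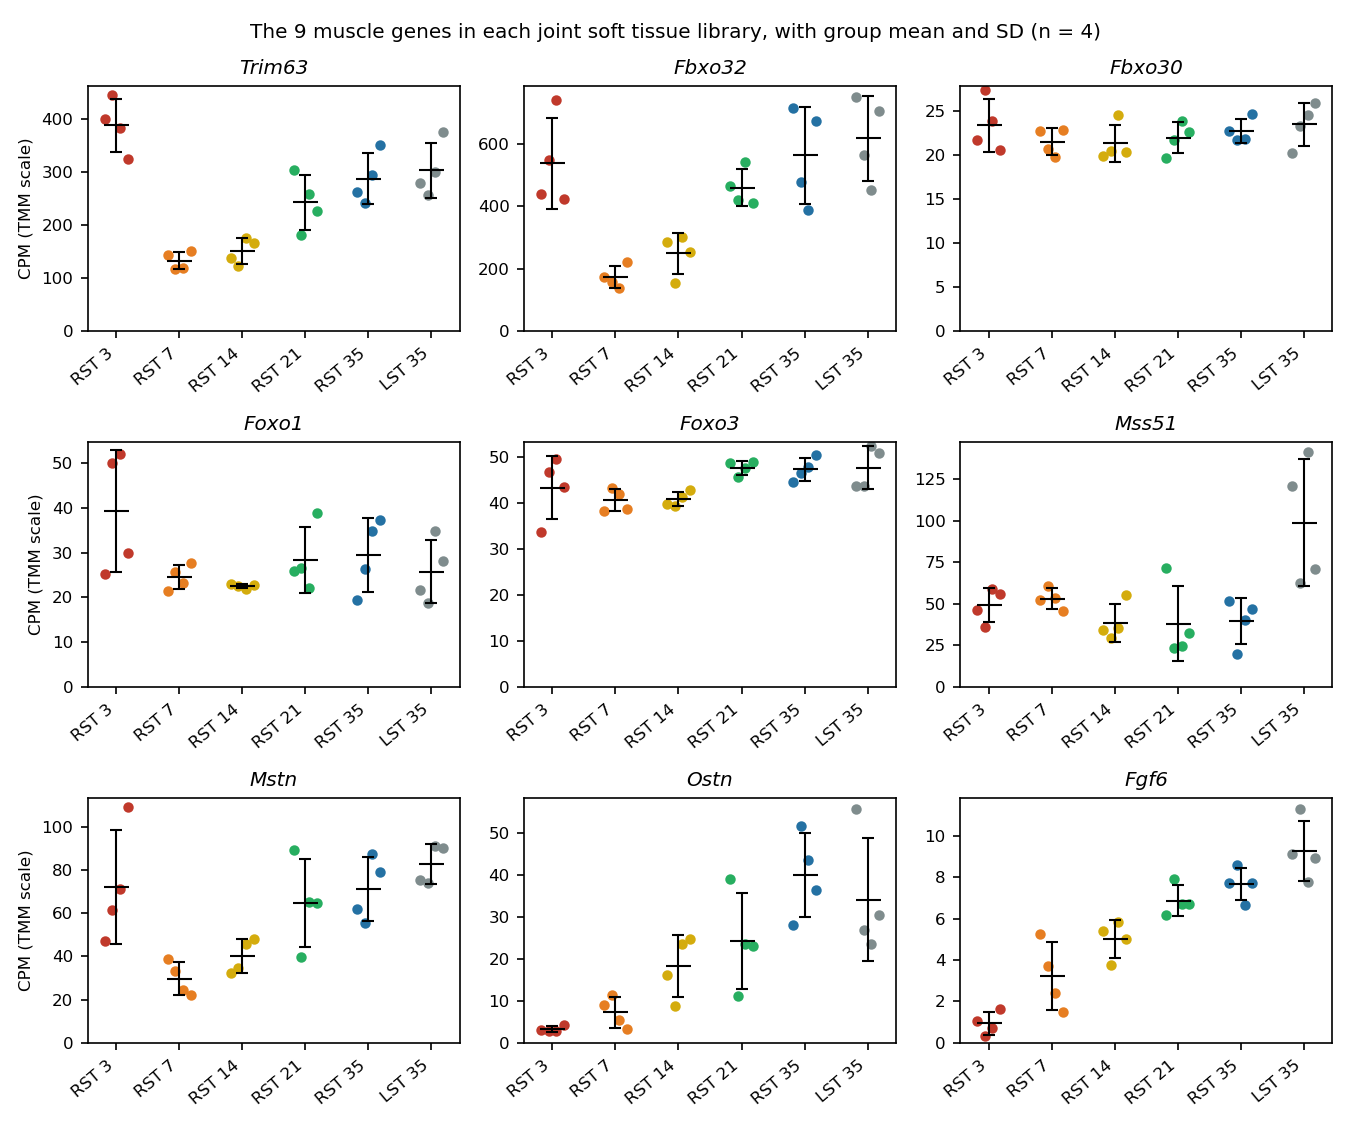
CPM of each of the 9 genes (vertical axes, each from 0) in the 24 libraries by group and day, with points for libraries and bars for the mean and SD of 4. Trim63, Fbxo32 and Mstn dip on RST days 7 and 14, Ostn and Fgf6 start near 0 on day 3, Mss51 is high in LST day 35, and Fbxo30 stays between 19.6 and 27.4 CPM.

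The first question was how these genes stood on each RST day against LST day 35, and from one RST day to the next. On the TMM scale, 2 of the 9 were higher and 3 lower on RST day 3, by edgeR's quasi-likelihood test at an adjusted p below 0.05, where 38.6% and 30.1% of all genes were. On days 7 and 14 the same 7 of 9 (all but Fbxo30 and Foxo1) were lower and none higher. Of all genes, 35.1% were lower and 41% higher on day 7, and 24.5% and 33.4% on day 14. On days 21 and 35 Mss51 alone was lower, against 5.42% and 0.0495% of all genes, while 21.7% and 2.92% of all genes were higher. Over the RST days 7 of 9 changed, with 79.6% of all genes, and Fbxo30 (edgeR adjusted p = 0.628) and Mss51 (0.467) missed the threshold.

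Trim63 (ENSMUSG00000028834; mm10 chromosome 4, 134315120 to 134329629, plus strand) was highest on RST day 3, at 399, 445, 382 and 323 CPM. It stood at 143, 117, 119 and 151 CPM on day 7 and at 138, 123, 175 and 165 on day 14. All 8 of these later libraries lay below every day 3 and every LST library. It had come back to 303, 179.8, 259 and 227 CPM on day 21 and to 262, 241, 293 and 351 on day 35, beside 278, 255, 300.3 and 375 in LST. The last 2 RST days thus overlapped with LST.

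The fall of Trim63 from day 3 to day 7 was −1.55 ± 0.16 (log2 fold change ± SE, edgeR adjusted p = 2.49e-07), with groups that did not overlap. Against LST the change was −1.19 ± 0.16 on day 7 (edgeR adjusted p = 6.48e-07) and −1.01 ± 0.16 on day 14 (1.73e-05). On day 3 it was 0.36 ± 0.16 higher (edgeR adjusted p = 0.0491), with overlapping groups, and this call held in 3 of 13 alternative settings (adjusted p 0.0151 to 0.15). It was lost without any 1 of RST day 3 replicates 1, 2 and 3 (0.087, 0.146 and 0.069) or LST replicates 1, 2 and 3 (0.114, 0.15 and 0.0843). RLE scaling (edgeR adjusted p = 0.0817), no filter on low counts (0.0616) and a fit of the 2 groups alone (0.0754) ended the call too, as did DESeq2 (adjusted p = 0.077). The step from day 14 to 21 rose by 0.69 ± 0.16 (edgeR adjusted p = 0.0452), where 0.737% of all genes were called in either direction. That rise was lost without day 14 replicate 1, 2 or 4 (0.108, 0.258 and 0.0606) and without day 21 replicate 1, 3 or 4 (0.229, 0.198 and 0.09).

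Fbxo32 (ENSMUSG00000022358; chromosome 15, 58175879 to 58214932, minus strand) held 438, 549, 741 and 425 CPM on RST day 3. It then fell to 173, 158, 137 and 221 CPM on day 7 and stood at 287, 154, 302 and 253 on day 14. No library of these 2 days reached the lowest LST library, since LST held 752, 563, 453 and 706 CPM. Levels were 465, 421, 542 and 412 CPM on day 21 and 714, 478, 388 and 674 on day 35, both overlapping with LST. An opposite-strand gene, Gm15943, overlaps it and had 16 to 92 counts per library against at least 4183 for Fbxo32.

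From day 3 to day 7 Fbxo32 fell by 1.64 ± 0.23 on the log2 scale (edgeR adjusted p = 1.04e-05). Against LST it was −1.84 ± 0.23 on day 7 (edgeR adjusted p = 2.5e-07) and −1.31 ± 0.23 on day 14 (5.39e-05). On day 3 the value was −0.20 ± 0.22 (edgeR adjusted p = 0.44), and whether it differed from the 0.36 of Trim63 was not tested. The step from day 14 to 21, 0.89 ± 0.23, missed the threshold (edgeR adjusted p = 0.0599) although the groups did not overlap. It passed in 5 of 12 alternatives: with no filter on low counts (0.00602), by DESeq2 (0.00768), with the replicate number as a block (0.0427), without day 14 replicate 3 (0.0303) and without day 21 replicate 2 (0.00864).

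Fbxo30 (ENSMUSG00000047648; chromosome 10, 11281330 to 11298052, plus strand) was the flattest of the 9. Its group means lay between 21.3 and 23.5 CPM, a ratio of 1.10, and no TMM comparison called it. The log2 fold changes against LST ran from −0.14 ± 0.10 on day 14 to −0.01 ± 0.10 on day 3.

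Foxo1 and Foxo3 are the FoxO factors that bind the ligase promoters once they enter the nucleus, a step that transcript levels do not show. Foxo1 (ENSMUSG00000044167; chromosome 3, 52268336 to 52353221, plus strand) held 25.2, 50, 52.0 and 30.0 CPM on RST day 3. It held 21.5, 25.7, 23.2 and 27.6 CPM on day 7 and 22.9, 22.5, 22.0 and 22.8 on day 14, and in LST 21.7, 18.6, 34.7 and 28.1. Replicates 2 and 3 of day 3 stood above every other library, while the others lay within the LST range. Day 21 ranged from 22.2 to 38.9 CPM and day 35 from 19.3 to 37.3.

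On day 3 Foxo1 was 0.61 ± 0.23 higher than in LST (log2, edgeR adjusted p = 0.0221). The call was lost without day 3 replicate 2 or 3 (0.0909 and 0.1) and without LST replicate 1 or 2 (0.0663 and 0.0852), and with the 2 groups fitted alone (0.0751). It fell by 0.68 ± 0.23 from day 3 to day 7 (edgeR adjusted p = 0.0198), a call lost without day 3 replicate 2 or 3 (0.0763 and 0.083) or day 7 replicate 1 (0.0512). On days 7 and 14 Foxo1 was at −0.07 ± 0.23 and −0.19 ± 0.23 against LST, neither past the threshold.

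Foxo3 (ENSMUSG00000048756; chromosome 10, 42181841 to 42276755, minus strand) changed little. It held 38.4, 43.2, 42.1 and 38.9 CPM on day 7, 39.9, 39.4, 41.5 and 43.0 on day 14, and 43.8, 43.8, 52.4 and 51.1 in LST. The groups were separated by less than 1 CPM. It was lower than LST by −0.23 ± 0.09 on day 7 (edgeR adjusted p = 0.0227) and −0.22 ± 0.09 on day 14 (0.0384). The first call was lost without day 7 replicate 1 or 4 (0.0595 and 0.0571) or LST replicate 3 or 4 (0.081 and 0.0644). The second was lost without day 14 replicate 1, 2 or 3 (0.0765, 0.0919 and 0.0512) or LST replicate 3 or 4 (0.125 and 0.101), and also with no filter on low counts (0.102). Means were 43.4 ± 6.90 CPM on day 3, 47.8 ± 1.5 on day 21 and 47.4 ± 2.47 on day 35 (SD, n = 4).

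Mss51 (ENSMUSG00000021815; chromosome 14, 20482867 to 20496901, minus strand) was lower than LST at every RST time. LST day 35 held 121, 62.5, 141 and 71.2 CPM. On RST day 35 the values were 51.9, 19.8, 40.1 and 47.0 CPM, all below the lowest LST library. Day 3 (46.6, 36.3, 58.9 and 55.9 CPM), day 7 (52.5, 60.8, 53.5 and 45.5) and day 14 (34.4, 29.5, 35.5 and 55.5) also lay wholly below LST. On day 21, with 71.5, 23.7, 24.8 and 32.2 CPM, replicate 1 exceeded 2 LST libraries.

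The log2 fold change of Mss51 was −1.0 ± 0.32 on day 3 (edgeR adjusted p = 0.00904), −0.90 ± 0.32 on day 7 (0.0154), −1.35 ± 0.33 on day 14 (0.00137), −1.38 ± 0.33 on day 21 (0.00285) and −1.32 ± 0.33 on day 35 (0.027). These 5 comparisons share the same 4 LST libraries, so they do not repeat one another. On day 35 it was among 8 genes called lower, of 16149. That call was lost without RST day 35 replicate 2, 3 or 4 (edgeR adjusted p = 0.0991, 0.0653 and 0.0697) or LST replicate 1 or 3 (0.0798 and 0.115), with a log2 fold change of −1.48 to −1.10 over the 8 fits with 1 library left out. The day 7 call was lost without LST replicate 3 (−0.68, edgeR adjusted p = 0.0729). The mean was 53.1 ± 6.25 CPM on day 7 and 38.1 ± 22.6 on day 21 (SD, n = 4), and none of the 4 steps between RST days was called.

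Mstn (ENSMUSG00000026100; chromosome 1, 53061640 to 53068079, plus strand) held 46.9, 61.2, 71.0 and 109 CPM on RST day 3. It was at 38.9, 33.3, 24.4 and 22.2 CPM on day 7 and 32.5, 34.7, 45.8 and 47.9 on day 14, against 75.2, 73.9, 91.2 and 90.1 in LST. Both days lay wholly below LST. Day 21 (89.3, 39.7, 65.1 and 64.5 CPM) and day 35 (61.7, 55.6, 87.4 and 78.9) overlapped with LST. Mstn fell by 1.28 ± 0.24 on the log2 scale from day 3 to day 7 (edgeR adjusted p = 0.000254). Against LST it was −1.48 ± 0.24 on day 7 (edgeR adjusted p = 1e-05), −1.04 ± 0.24 on day 14 (0.000949) and −0.20 ± 0.24 on day 3 (0.471).

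Ostn (ENSMUSG00000052276; chromosome 16, 27307489 to 27351212, plus strand) had its lowest levels on RST day 3, at 3.16, 2.94, 2.82 and 4.22 CPM. It held 9.03, 11.4, 5.50 and 3.24 CPM on day 7 and 16.3, 8.86, 23.7 and 24.7 on day 14. Every day 3 library lay below every library of the other groups except replicate 4 of day 7. On day 21 it held 39.1, 11.2, 23.5 and 23.1 CPM, on day 35 28.1, 51.8, 43.6 and 36.5, and in LST 55.7, 26.9, 23.5 and 30.6. LST replicate 1 was the highest library of all. An opposite-strand gene, Gm32312, overlaps Ostn and had 0 to 3 counts per library against at least 66 for Ostn.

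Ostn was −3.37 ± 0.42 against LST on day 3 (log2, edgeR adjusted p = 3.14e-07), about 10.4-fold lower, and −2.22 ± 0.39 on day 7 (1.88e-05). It was −0.90 ± 0.37 on day 14 (edgeR adjusted p = 0.0397), a call lost without LST replicate 1 (−0.56, 0.204) and without day 14 replicate 1 or 2 (0.0826 and 0.142). With the replicate number as a block it was lost too (edgeR adjusted p = 0.0571). The rise from day 3 to 7 was 1.15 ± 0.42 (edgeR adjusted p = 0.0324), and was lost without any 1 of day 3 replicates 1, 2 and 3 (0.0677, 0.0724 and 0.0715) or day 7 replicates 1 and 2 (0.0731 and 0.141). From day 7 to 14 it rose by 1.32 ± 0.38 (edgeR adjusted p = 0.00964), past the threshold in 12 of 12 alternatives.

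Fgf6 (ENSMUSG00000000183; chromosome 6, 127015586 to 127028187, plus strand) held 1.07, 0.312, 0.726 and 1.66 CPM on RST day 3, from 9 to 44 counts. It held 5.26, 3.69, 2.39 and 1.51 CPM on day 7, 5.42, 3.74, 5.85 and 4.99 on day 14 and 6.17, 7.91, 6.69 and 6.69 on day 21. The means of these 3 days were 3.21, 5.0 and 6.86 CPM, and neither step between them was called. The step from day 7 to 14 was 0.64 ± 0.30 (log2, edgeR adjusted p = 0.0909). It passed in 2 of 12 alternatives, without day 7 replicate 1 (0.0136) and without day 14 replicate 2 (0.0498). The step from day 14 to 21, 0.47 ± 0.29 (edgeR adjusted p = 0.305), passed in 0 of 12, although the groups did not overlap. Day 35 held 7.73, 8.57, 6.64 and 7.70 CPM and LST 9.09, 11.3, 7.75 and 8.90, so all libraries of days 3, 7 and 14 lay below LST. Fgf6 was −3.30 ± 0.34 against LST on day 3 (log2, edgeR adjusted p = 1.99e-08), about 9.86-fold lower, −1.53 ± 0.29 on day 7 (6.24e-05) and −0.89 ± 0.29 on day 14 (0.0109). The step from day 3 to day 7 rose by 1.77 ± 0.34 (edgeR adjusted p = 0.000329), in which the highest day 3 library stood above the lowest of day 7.

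By step, 6 of 9 genes were called from day 3 to 7 (Trim63, Fbxo32, Foxo1 and Mstn lower, Ostn and Fgf6 higher), where 41.2% of all genes were. From day 7 to 14 it was Ostn alone, against 38.9% of all genes. From day 14 to 21 it was Trim63 alone, and from day 21 to 35 none by edgeR, against 3.97% of all genes. In that last step 0 of 9 had an unadjusted p below 0.05 and DESeq2 called 0, and the value farthest from 0 was 0.73 ± 0.36 for Ostn. Calls from day 14 to 21 depended on single libraries. Of all genes 119 were called, and from 2 (without day 21 replicate 1) to 4466 (without day 21 replicate 2) over the 8 fits with 1 library left out. The same fits called 0 and 4 of the 9 genes.

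Since mature muscle transcripts made up less of the early libraries, the 9 genes were also set against them. The mean log2 CPM of the 18-gene list (contractile, calcium-handling and metabolic genes of muscle fibres) was 10.77 ± 0.24 on RST day 3, 10.67 ± 0.29 on day 7, 11.48 ± 0.22 on day 14, 11.84 ± 0.21 on day 21, 11.96 ± 0.02 on day 35 and 12.01 ± 0.05 in LST (SD, n = 4). By TMM, 18 of 18 were lower than LST on days 3 and 7, 12 of 18 on day 14 and 0 on days 21 and 35. Regenerating muscle markers (12 genes) summed to medians of 422 CPM on RST day 3, 454 on day 7 and 112 on day 14, against 85.4 in LST. The 18-gene list holds mature muscle genes alone, and the part of regenerating muscle in the values below was not tested. Scaling each library to this list moved the median log2 fold change of all genes against LST from 0.09 to 1.34 on day 3, from 0.08 to 1.44 on day 7, from 0.03 to 0.58 on day 14, from 0.02 to 0.21 on day 21 and from 0.02 to 0.07 on day 35. The scaling moves all genes of a library by the same factor, so small negative TMM values turn positive by construction. Setting a value against those medians nearly returns the TMM reading, while its distance from 0 gives the change relative to the list.

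On the muscle scale Ostn and Fgf6 stayed lower on RST day 3, at −2.14 ± 0.33 (edgeR adjusted p = 2.55e-06) and −2.08 ± 0.30 (1.1e-06), where 1.94% of all genes were lower. That share, like those of the later days on this scale, is small in part because the scaling moved most genes up. The other 6 apart from Mss51 were higher there, where 86% of all genes were: Foxo1 1.85 ± 0.27, Trim63 1.64 ± 0.18, Fbxo30 1.26 ± 0.17, Foxo3 1.11 ± 0.14, Fbxo32 1.04 ± 0.22 and Mstn 1.02 ± 0.18. Of these, Foxo1 and Trim63 lay above the all-gene median of 1.34 and the other 4 below it. Fbxo32, Foxo3, Fbxo30 and Mstn thus had values below 0 on the TMM scale, none of them called, and above 0 on this one. Mss51, lower by TMM, was at 0.22 ± 0.30 (edgeR adjusted p = 0.501).

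On day 7 Ostn alone was lower on the muscle scale, at −0.96 ± 0.31 (edgeR adjusted p = 0.00638), as were 1.66% of all genes. That call was lost without LST replicate 1 (−0.60, edgeR adjusted p = 0.0655). Fbxo30 (1.23 ± 0.17), Foxo1 (1.30 ± 0.27) and Foxo3 (1.13 ± 0.14) were higher, as were 86.6% of all genes, all 3 below the all-gene median of 1.44. Of the genes lower by TMM on day 7, Foxo3 thus changed sign on this scale, as did Trim63 (0.18 ± 0.18) and Mss51 (0.43 ± 0.30), which did not pass. The shift of all genes brings such sign changes by construction, and each of these values lies below the all-gene median of 1.44. Values were smaller and past no threshold for Fbxo32 (−0.47 ± 0.22, edgeR adjusted p = 0.0533), Mstn (−0.17 ± 0.18) and Fgf6 (−0.26 ± 0.27). Fbxo32 passed as lower without RST day 7 replicate 4 (−0.75, edgeR adjusted p = 0.00221), LST replicate 2 (0.0481) or LST replicate 3 (0.0239), and with the median of the list in place of its mean (0.00977) or with Tnnc2 left out of it (0.0428).

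By day 14 the muscle list had come part of the way back, with 12 of its 18 genes still lower than LST by TMM. On that day 4 genes were lower on the muscle scale, where 0.904% of all genes were: Fbxo32 at −0.81 ± 0.22 (edgeR adjusted p = 0.00365), Mss51 at −0.85 ± 0.31 (0.0202), Mstn at −0.52 ± 0.18 (0.0152) and Trim63 at −0.49 ± 0.18 (0.0233). Trim63, Fbxo32 and Mstn were then lower than LST also relative to muscle genes. Fbxo32 passed with each library left out, while Trim63 was lost without day 14 replicate 1 or LST replicate 4 (edgeR adjusted p = 0.0598 and 0.0936) and with the median of the list (0.0541), and Mstn without day 14 replicate 1 (0.059). Mss51 was lost without day 14 replicate 1 or 3 (edgeR adjusted p = 0.0504 and 0.0514) or LST replicate 1 or 3 (0.0625 and 0.0975). Fbxo30 was higher by 0.40 ± 0.17 (edgeR adjusted p = 0.044), as were 58.7% of all genes, and was lost with the median of the list (0.1), with the list short of Tnnc2 (0.054), with the replicate block (0.0518), without day 14 replicate 2 or 3 (0.161 and 0.0735) or without any 1 of the 4 LST libraries (0.052 to 0.113).

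On days 21 and 35 Mss51 alone was lower on the muscle scale, at −1.25 ± 0.31 (edgeR adjusted p = 0.00524) and −1.27 ± 0.31 (0.0441). Of all genes 0.372% and 0.00619% were lower, so that on day 35 Mss51 was the 1 gene of 16149 called lower. The TMM fit uses the same libraries and gave a close value that day, so this call is not a second finding. Mss51 was also among the genes chosen with earlier results of these data known. The day 35 value was between −1.45 and −1.04 with 1 library left out, and the call was lost without RST day 35 replicate 2, 3 or 4 (edgeR adjusted p = 0.167, 0.109 and 0.101) or LST replicate 1 or 3 (0.157 and 0.217). The muscle list itself differed little then, with a mean log2 CPM of 11.93 to 11.97 over the RST libraries and 11.97 to 12.06 over LST. Regenerating muscle markers (12 genes) summed to medians of 84.8 CPM on RST day 35 and 85.4 in LST, macrophage markers to 360.1 and 139, and fibroblast and matrix markers to 4749 and 1319. The part of the last 2 lists in the Mss51 difference was not tested.

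**Figure D2:**
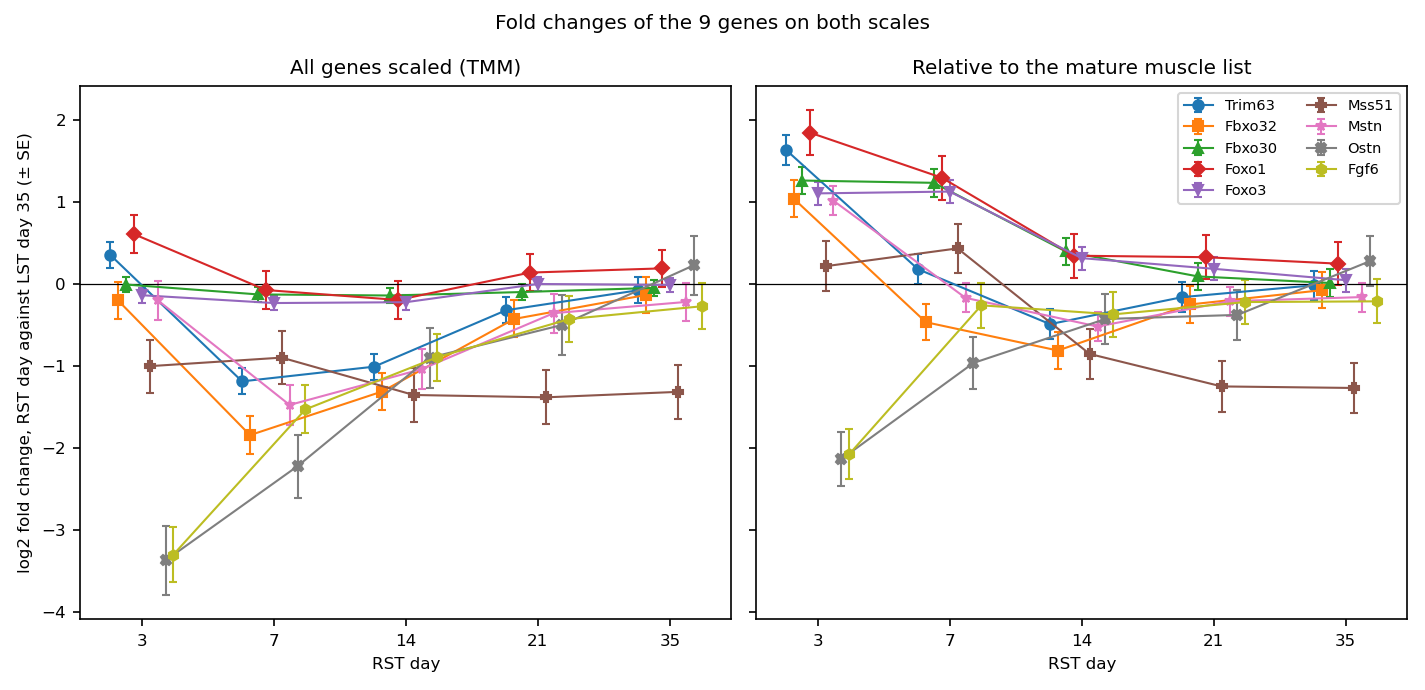
Log2 fold change against LST day 35 (vertical axis, bars for SE) of the 9 genes by RST day (horizontal axis), by TMM on the left and relative to the mature muscle list on the right. On day 3 Ostn and Fgf6 are near −3.3 on the left and −2.1 on the right, while 6 genes are above 1 on the right, where none is above 1 on the left and the median of all genes is 1.34.

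**Figure D3:**
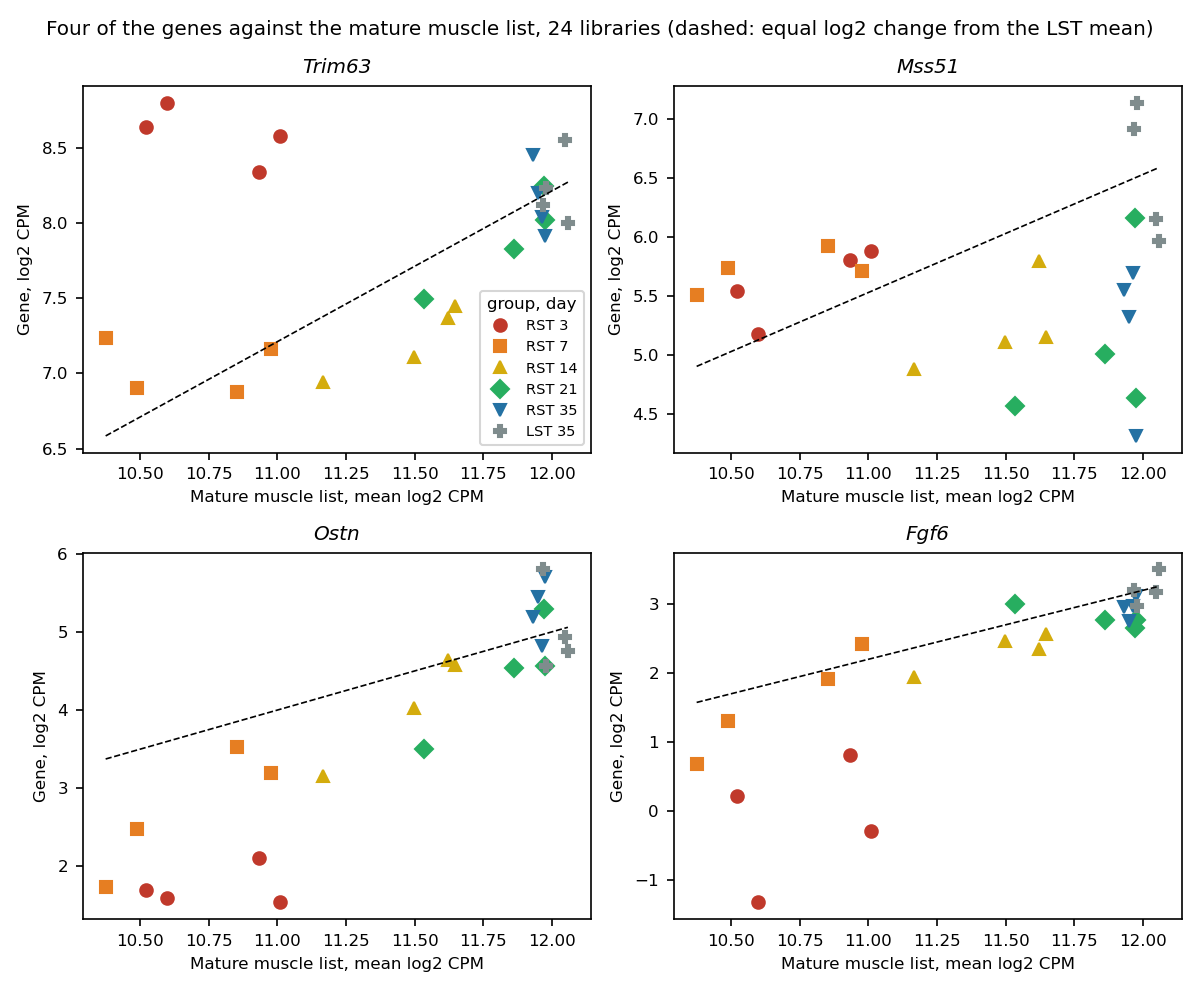
Log2 CPM of Trim63, Mss51, Ostn and Fgf6 (vertical axes) against the mean log2 CPM of the mature muscle list (horizontal axes) in 24 libraries, with a dashed line of equal change from the LST mean. Trim63 of RST day 3 lies above the line, Ostn and Fgf6 of day 3 below it, and Mss51 of RST day 35 below it, at nearly the LST level of the list.

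A further 6 lists of related genes, with none of the 9 among them, were described by their counts on the TMM scale. The shares of all genes called higher and lower than LST, against which their counts stand, were 38.6% and 30.1% on day 3, 41% and 35.1% on day 7, 33.4% and 24.5% on day 14, 21.7% and 5.42% on day 21 and 2.92% and 0.0495% on day 35. Of 17 other muscle ligases and partners, 1 was higher and 13 were lower than LST on RST day 3, with a median of −0.40 against 0.09 for all genes. On day 7 it was 1 and 12, on day 14 0 and 12, on day 21 0 and 3 and on day 35 neither. On the muscle scale 1 of 17 was lower on day 3 and 14 were higher, at a median of 0.85 that lies below the 1.34 of all genes. Fbxo40, a ligase for the insulin receptor substrate, fell from 606 ± 18.9 CPM in LST to 199 ± 29.2 on day 3 (−1.61 ± 0.15, edgeR adjusted p = 4.35e-09), and was the 1 that stayed lower on the muscle scale. Trim55, a close relative of Trim63, was −1.10 ± 0.14 by TMM and 0.15 ± 0.09 on the muscle scale, where it was not called. The deubiquitinase Usp19 was −0.70 ± 0.08 by TMM and higher, by 0.56 ± 0.11, on the muscle scale.

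Of 15 FoxO-responsive and autophagy genes, 4 were higher and 8 lower on day 3 (38.6% and 30.1% of all genes), 2 and 9 on day 7, 1 and 7 on day 14, 0 and 1 on day 21 and none on day 35. The median was −0.39 on day 3 and −0.53 on day 7 by TMM (all genes 0.09 and 0.08), and 0.88 and 0.82 on the muscle scale (all genes 1.34 and 1.44). Eif4ebp1, a brake on translation, rose from 40.2 ± 3.19 CPM in LST to 127 ± 27.5 (1.66 ± 0.12, edgeR adjusted p = 3.19e-10). Ctsl, a lysosomal protease that macrophages also make, rose from 133 ± 8.66 to 529 ± 168 CPM (2.0 ± 0.19). The 10 macrophage markers, all higher on day 3, summed to medians of 139 and 2140 CPM, and their part in the Ctsl difference was not tested. Ulk1, a kinase that starts autophagy, was −1.13 ± 0.11 by TMM and 0.12 ± 0.12 on the muscle scale.

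Of 15 genes of insulin-like growth factor and Akt signalling, 2 were higher and 9 lower on day 3 (38.6% and 30.1% of all genes), 4 and 9 on day 7, 3 and 8 on day 14, 2 and 0 on day 21 and 1 and 0 on day 35. Igf1, a growth factor of muscle that macrophages and fibroblasts also make, was called higher on all 5 RST days, at 68.9 ± 7.05 CPM on day 3 and 42.6 ± 1.17 on day 35 against 16.9 ± 2.08 in LST. Its day 35 log2 fold change was 1.33 ± 0.24 (edgeR adjusted p = 0.00183). On day 3 the kinase Akt1 was 1.04 ± 0.10 higher. Foxo4, another FoxO factor, was −1.11 ± 0.12 by TMM and 0.13 ± 0.08, not called, on the muscle scale. The median of the list was −0.31 on day 3 by TMM and 0.94 on the muscle scale.

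Of 14 genes of myostatin and activin signalling, 5 were higher and 7 lower on day 3 (38.6% and 30.1% of all genes), 5 and 6 on day 7 (41% and 35.1%), 4 and 6 on day 14, 2 and 3 on day 21 and 1 and 0 on day 35. Inhba, whose product forms activin A, a ligand of the same receptors as myostatin, was called higher on all 5 RST days. It stood at 51.6 ± 13.1 CPM on day 3 and 14.8 ± 8.42 on day 35 against 3.05 ± 1.06 in LST, with log2 fold changes of 4.08 ± 0.43 (edgeR adjusted p = 3.27e-08) and 2.27 ± 0.43 (0.00322). On day 3 Wfikkn2, a myostatin antagonist, was −1.19 ± 0.14 by TMM and 0.05 ± 0.12 on the muscle scale, and the signal carrier Smad4 −0.53 ± 0.07 and 0.72 ± 0.11. The list's median was −0.12 on day 3 by TMM and 1.14 on the muscle scale.

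Of 13 tested genes among other myokines and the receptors of osteocrin and Fgf6, 7 were higher and 6 lower on day 3 (38.6% and 30.1% of all genes), 7 and 4 on day 7, 6 and 2 on day 14, 4 and 0 on day 21 and 1 and 0 on day 35. Fgf21 did not pass the filter. Apln, a peptide of muscle and vessels, was at 12.9 ± 3.13 CPM on day 3 against 1.92 ± 0.409 in LST (2.74 ± 0.24, edgeR adjusted p = 1.87e-09). Metrnl, a secreted factor of muscle and macrophages, was 2.0 ± 0.23 higher on day 3 and 0.90 ± 0.23 on day 35 (edgeR adjusted p = 0.0348), the latter not called on the muscle scale (0.262). Fgfr4, a receptor that binds Fgf6, was 1.51 ± 0.17 higher on day 3, at 11.6 ± 2.57 against 4.06 ± 0.749 CPM, while Fgf6 itself was 3.30 lower. The median was 0.25 on day 3 by TMM and 1.5 on the muscle scale.

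Of 12 glucocorticoid-responsive genes, 3 were higher and 3 lower on day 3 (38.6% and 30.1% of all genes), 2 and 6 on days 7 and 14 each, 1 and 0 on day 21 and none on day 35. The metallothioneins Mt2 and Mt1, which bind zinc and also respond to inflammation, were 4.66 ± 0.36 and 3.36 ± 0.32 higher on day 3 (edgeR adjusted p = 3.89e-10 and 8.3e-09). Klf9, a transcription factor induced by glucocorticoids, was −1.06 ± 0.14 by TMM and 0.18 ± 0.11, not called, on the muscle scale. The median was 0.32 on day 3 and −0.68 on day 7 by TMM, and 1.61 and 0.72 on the muscle scale.

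**Figure D4:**
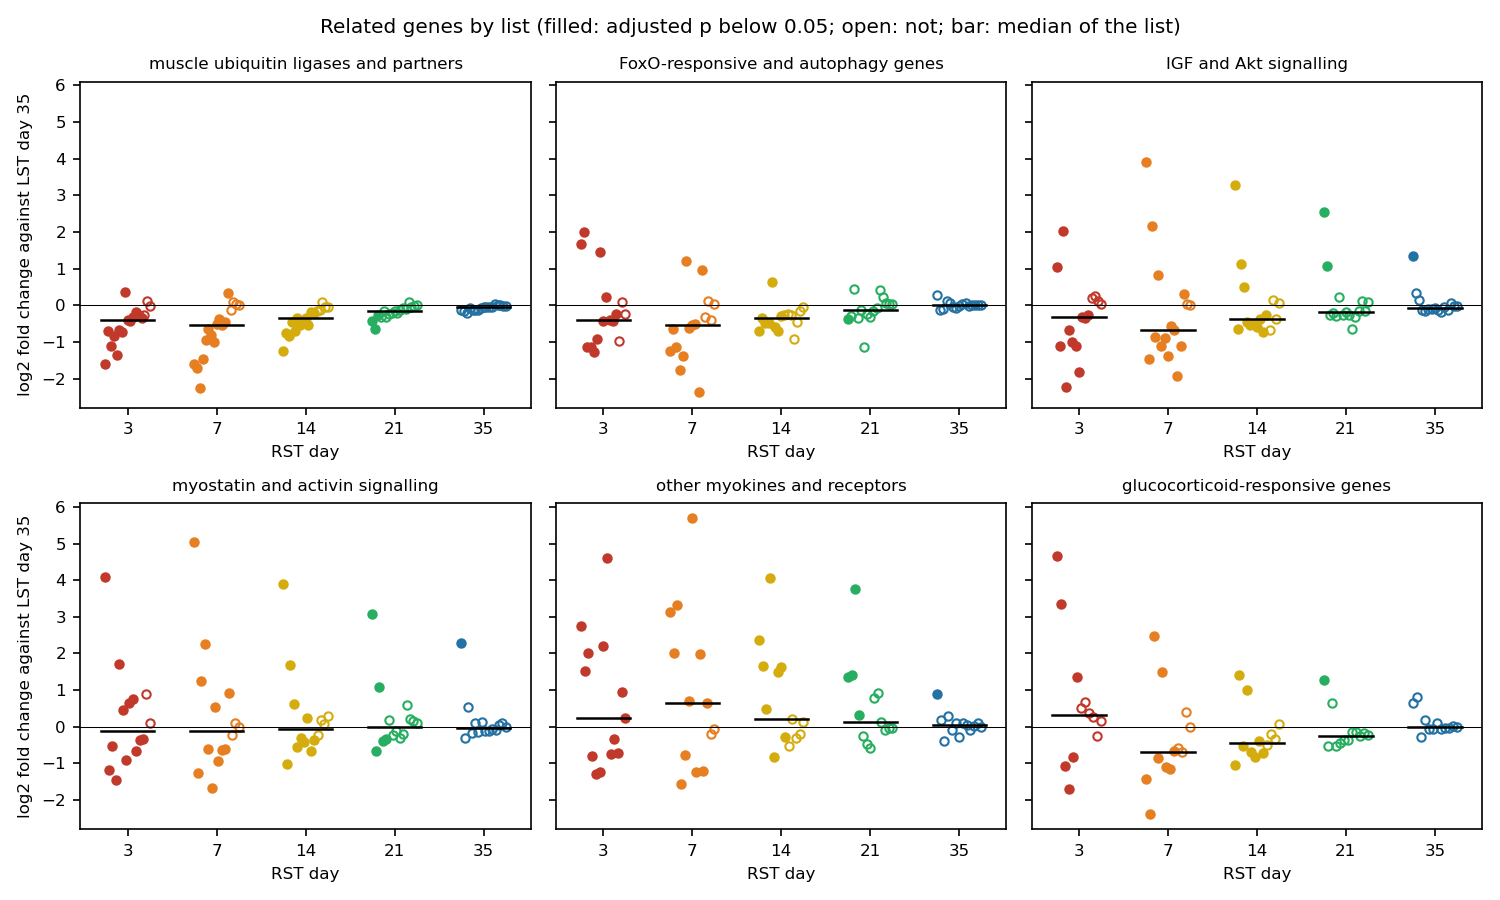
Log2 fold change against LST day 35 by TMM (vertical axis) of the genes of 6 related lists by RST day (horizontal axis), filled where the adjusted p was below 0.05, with a bar at each list's median. The ligase list has its median at −0.40 on day 3 by TMM, where it is 0.85 on the muscle scale, and no filled point on day 35, while Inhba, the highest point of the myostatin and activin panel, stays filled from day 3 (4.08) to day 35 (2.27).

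Across the 24 libraries, which share the 6 groups and their muscle share, the 9 genes fell into patterns that are described here by Pearson's r of log2 CPM. Ostn and Fgf6 went together (r = 0.89, and 0.43 for deviations from the group means), as did Trim63 and Fbxo32 (0.87 and 0.45) and Trim63 and Mstn (0.81 and 0.40). Foxo1 and Foxo3 had r = 0.52 over all libraries and 0.75 for the deviations. Mss51 had its highest r with Mstn (0.35).

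The genes most like each of the 9, among all that passed the filter, were Etf1, Eef2 and Faf1 for Trim63 (r = 0.97, 0.96 and 0.96), and Lrrfip2, Ipo5 and Srp68 for Fbxo32 (0.95, 0.93 and 0.93). For Mstn they were Tpbgl, Eps15 and Sgcb (0.94, 0.93 and 0.92), for Ostn Uts2b, Mark3 and Klhdc2 (each 0.96) and for Fgf6 Fam110b, Mettl21c and Amer1 (0.97, 0.97 and 0.96). Etf1 and Eef2 encode factors of translation, Sgcb a protein of the muscle fibre membrane and Mettl21c a methyltransferase of muscle. Likeness was weaker for Foxo3, with Hectd2 (0.85) and Serac1 (0.85) among the nearest, for Foxo1, led by Synj2 (0.80), Fcna (0.76) and Tesmin (0.75), and for Fbxo30, led by Usp31 (0.77), Sik1 (0.71) and Zbtb11 (0.68). Mss51 had no close partner, with Rtn1 (0.69), Ppil4 (0.60) and Fpgt (0.59) the nearest.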

How the data were processed

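Whole-number counts per gene of 24 joint soft tissue libraries were used as deposited by the authors, unnormalised. Per the labels' protocols, frozen tissue was extracted with Trizol and sequencing libraries came from a NEBNext Ultra II kit. The submitters' processing notes name fastp, STAR and the build mm10. Versions, counting program, annotation and strand setting: not given in the sources used here, so reads of overlapping genes on opposite strands cannot be told apart. Groups come from the sample titles. Replicates were checked for duplicates, and none matched another within sampling noise (lowest chi-square per degree of freedom 8.27). Since nothing says that replicates are separate animals, p-values measure the spread between these libraries, which may be technical.

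Identifiers were matched to GENCODE M21 (mm10), for 36591 of 36604 genes, and positions are 1-based. Counts were filtered with filterByExpr (minimum count 10), scaled with TMM factors and fitted once over the 6 groups in edgeR 4.0.16 (R 4.3.3), whose quasi-likelihood F test gave each comparison. P-values were adjusted by Benjamini and Hochberg over the 16149 genes of a comparison and not over comparisons. Standard errors were taken as the size of the log2 fold change divided by the root of F. The muscle scale is the same fit with library sizes proportional to 2 to the power of the mean log2 CPM of 18 mature muscle genes. The fit was also run on simulated data in which most genes were unchanged, so scaling under a shift of most genes was not tested. Log2 CPM used a prior count of 2.

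All 9 genes are named in each comparison, with up to 3 genes of smallest adjusted p per related list on RST days 3 and 35, and the 3 best correlated genes per member (no predicted genes or pseudogenes), of which 1 is not reported here. The members and lists were chosen with earlier results of these data known. Alternatives were RLE scaling, no filter, DESeq2 1.42.0, a replicate block, the median or sum of the muscle list, each library left out and, chosen after seeing the data, the 2 groups of a comparison alone and the muscle list without Tnnc2. The lymph node table was not used here.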

Additional observations from a re-analysis of the deposited data

Results flagged for a closer look

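In 54 groups of 4 libraries (9 genes in 6 groups) 1 library stood apart from its group by Dixon's criterion. Fbxo30 in RST day 14 replicate 3 was at 24.5 CPM, against 19.9 to 20.4 in the other 3 libraries, a gap of 0.881 of the group's range, above the critical value for 4 samples. Chance alone flags about 1 in 20 groups. The value lies within the range of the other groups of Fbxo30.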

How the results depend on the processing

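Of 1557 values of the 9 genes under an alternative, 1462 stayed on the same side of the threshold, 72 lost a call and 23 gained one, and 0 called values changed sign. Counts of the 9 genes called moved by over 1.5 times as follows. For RST day 3 against LST day 35 (5) the 2 groups alone gave 3 and single libraries left out 3 to 5. For day 21 against LST (1) these gave 2 and 1 to 2. For day 35 against LST (1) libraries left out gave 0 to 1, on both scales. From day 7 to 14 (1) no filter gave 2 and libraries left out 1 to 3. From day 14 to 21 (1) no filter gave 2, DESeq2 3 and libraries left out 0 to 4. On the muscle scale on day 14 (5) the list's median gave 3 and libraries left out 2 to 5. Where a fit used fewer libraries or genes, that is part of its construction, and the cause was otherwise not tested.

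In no comparison did the replicate numbers pair all libraries. Same-numbered deviations correlated highest from day 14 to 21 (0.0924, 0.678, 0.473 and 0.127, 3 of 4 best with their own number), at 0.083 to 0.191 for RST day 35 and LST (3 of 4) and as low as −0.366 from day 7 to 14. With the replicate block the count from day 14 to 21 was 2 (Trim63 and Fbxo32), and the other counts stayed within 1.5 times.

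Over all genes, calls for day 35 against LST (479) were 751 with no filter, 783 by DESeq2, 915 in the 2 groups alone and 182 to 544 with libraries left out. From day 14 to 21 (119) they were 570, 1218, 372 with the replicate block and 2 to 4466, and from day 21 to 35 (641) 1139 with no filter, 1216 by DESeq2 and 35 to 1884. For day 21 against LST (4375) they were 2502 without RST day 21 replicate 2, and on the muscle scale 1485 (from 3127). For day 35 on the muscle scale (162) libraries left out gave 64 to 164. Depth limits Fgf6 most, with 9 counts in its lowest library.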
